A study of Homo sapiens with 24 samples.

Results

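The chemokine genes CCL20, CXCL8, CXCL1, CXCL2, CXCL3, CXCL5 and CXCL10, the cytokine gene LIF and the NF-κB feedback genes NFKBIA and TNFAIP3 were followed in HepG2 cells, a human hepatocellular carcinoma line, as 10 of the 26475 gene symbols counted. They were chosen by symbol, as NF-κB-linked genes that liver cancer cells can make. RNA-seq was run on 24 libraries in 8 groups of 3: DMSO (the solvent control), ABBV-075 at 50 nM, ABBV-744 at 50 nM, ABBV-744 at 500 nM, IFNγ, and IFNγ together with each of the same 3 inhibitor treatments. ABBV-075 inhibits both bromodomains of the BET proteins, which bind acetylated histones at active genes, and ABBV-744 is selective for the second of the 2. The labels give no treatment time, no IFNγ dose and no solvent for the IFNγ groups, and the treatment length that the study's methods state covers only part of these groups. In the wording of the methods, ABBV-075 was given for a shorter time than the treatments listed alongside DMSO. How long the DMSO libraries and the other groups used here were treated is not clear. Time may therefore differ along with treatment in the comparisons below, that of ABBV-075 with DMSO included. The labels do not say whether the 3 libraries of a group came from separate cultures. The methods call the DMSO and ABBV-075 samples independent samples and experimental triplicates. The p-values measure only the spread between these libraries of 1 cell line, which may be technical.

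NF-κB is a dimer of Rel-family proteins that is held in the cytoplasm by inhibitor proteins until signals from TNF, interleukin-1 or microbial receptors free it. It then switches on chemokines and cytokines, and it also switches on its own inhibitors, IκBα (encoded by NFKBIA) and A20 (encoded by TNFAIP3), which end the response. CCL20 draws CCR6-bearing lymphocytes and dendritic cells, the CXCL1, CXCL2, CXCL3, CXCL5 and CXCL8 products draw neutrophils through CXCR1 and CXCR2, CXCL10 is the interferon-induced ligand of CXCR3, and LIF is an interleukin-6 family cytokine that signals through LIFR and IL6ST.

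In GRCh38 (GENCODE), CCL20 lies at chr2:227805739-227817564 on the plus strand, LIF at chr22:30240453-30246759 on the minus strand, NFKBIA at chr14:35401079-35404749 on the minus strand and TNFAIP3 at chr6:137867214-137883314 on the plus strand. CXCL8 (chr4:73740519-73743716) and CXCL1 (chr4:73869393-73871308) are on the plus strand of chromosome 4, and CXCL5 (chr4:73995642-73998677), CXCL3 (chr4:74036589-74038807) and CXCL2 (chr4:74097040-74099196) are on its minus strand in the same cluster. CXCL10 lies apart from that cluster at chr4:76021118-76023497, also on the minus strand. All 10 are protein-coding. The RefSeq starts of CCL20, CXCL8, CXCL2, CXCL3 and TNFAIP3 used below lie inside their GENCODE bounds. The printed stretches of CCL20 and CXCL3 lie wholly inside those bounds.

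Stretches from upstream of the RefSeq transcription starts (GRCh38.p14) are shown because they hold strings of the NF-κB type. Entries were matched for 9 of the 10 genes, and each stretch is written 5′ to 3′ on the gene's own strand. Capitals mark matches to the κB consensus or to the 9 letters GGAATTTCC, on either strand, which lie within a consensus match in 6 of these genes. In CXCL8 they also mark a match to the AP-1 letters TGANTCA, and in CXCL10 a match to the interferon-stimulated response element (ISRE), searched as GAAA, any 2 bases and GAAA.
CCL20 (chr2:227813722-227813791): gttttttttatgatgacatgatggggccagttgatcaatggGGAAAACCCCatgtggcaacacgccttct
CXCL8 (chr4:73740429-73740508): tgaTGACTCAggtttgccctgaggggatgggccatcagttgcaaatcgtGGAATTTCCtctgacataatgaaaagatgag
CXCL1 (chr4:73869303-73869342): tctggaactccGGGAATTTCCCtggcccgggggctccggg
CXCL2 (chr4:74099246-74099285): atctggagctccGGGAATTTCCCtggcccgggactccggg
CXCL3 (chr4:74038740-74038779): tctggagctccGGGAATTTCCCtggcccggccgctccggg
CXCL5 (chr4:73998748-73998787): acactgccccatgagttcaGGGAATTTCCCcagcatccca
CXCL10 (chr4:76023598-76023727): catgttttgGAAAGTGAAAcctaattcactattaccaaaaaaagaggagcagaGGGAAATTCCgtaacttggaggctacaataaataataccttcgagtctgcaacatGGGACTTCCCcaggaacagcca
NFKBIA (chr14:35404780-35404849): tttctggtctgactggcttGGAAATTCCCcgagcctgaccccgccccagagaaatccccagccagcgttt
TNFAIP3 (chr6:137867179-137867228): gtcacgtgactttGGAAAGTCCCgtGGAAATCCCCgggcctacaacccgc

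Within the 250 bases before the start, searched on both strands, the κB consensus occurred in 8 of the 9 genes, all but CXCL8, and in 9.96% of 35116 promoters of the same length. The 9 letters GGAATTTCC occurred in 7 of the 9 genes, CXCL8 included, and in 0.413% of all promoters. TGANTCA occurred in CXCL8 alone of the 9 (6.57% of promoters), the ISRE in CXCL10 alone (3.02%), and TTCNNNGAA, the letters of the STAT-type element, in CXCL5 alone (6.57%), where the match overlaps the κB match. The letters were chosen after the sequences were seen, and a match is a string of letters and not a measured binding site. The strings did not sort the genes by level: CXCL1, CXCL3 and CXCL5 hold both κB strings and had at most 1 count in all 24 libraries, while CCL20, which holds the consensus without the 9 letters, had the highest level per kilobase in the DMSO libraries.

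Between 2978982 and 4304103 reads per library (median 3462418.5) fell on genes, which is 11.95% to 16.78% of the reads in each file, and 56.0% to 69.4% of reads mapped to several places and were not counted. A gene with 3 counts or fewer in a library is reported as low: 3 counts stood for 0.666 to 0.999 CPM, the read count scaled to a common library total, and intervals on such counts cover counting error only. The cells carried all 8 hepatocyte markers examined, and PTPRC, CSF1R and CD3E (leukocytes), KDR (endothelium) and COL3A1 and DCN (fibroblasts) had no count in any library. LYZ (3622 to 7873 counts), CD68 (25 to 86) and CD14 (1 to 22), also leukocyte markers, had counts in every library. So did the stellate cell or fibroblast markers ACTA2 (27 to 84) and PDGFRB (4 to 33). PECAM1, CDH5, VWF and COL1A1 had at most 5 counts in any library. The summed level of the 8 hepatocyte markers was 14510 to 14751 CPM with DMSO and 12790 to 13331 with ABBV-075. That of the 6 leukocyte markers, nearly all of it LYZ, was 1663 to 1767 CPM with DMSO, 1155 to 1234 with ABBV-075, 1626 to 1857 with IFNγ and 1104 to 1354 with IFNγ plus ABBV-075. The 5 stellate cell or fibroblast markers summed to 21.5 to 23.5, 12.8 to 17.4, 23.5 to 27.4 and 9.64 to 15.9 CPM in the same order, and the 4 endothelial markers to at most 2.15 CPM anywhere. The part of these markers in the results below was not tested. As checks of the labels, HEXIM1, a gene that BET inhibitors raise, went from 53.9 CPM with DMSO to 145 with ABBV-075 (log2 change 1.41) and 89.5 with 500 nM ABBV-744 (0.74), but ABBV-744 at 50 nM was not called (65.1 CPM; adjusted p = 0.082, edgeR), while IRF1 went from 12 to 229 CPM with IFNγ.

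Libraries differed in a trend with base composition, and this touches several results. The median deviation of genes in the upper quartile of GC content minus that of genes in the lower quartile was 0.09 to 0.33 (log2) with DMSO, 0.52 to 1.08 with 50 nM ABBV-744 and −0.71 to −0.65 with IFNγ plus 50 nM ABBV-744. The 3 ABBV-075 libraries spread from −0.73 to 0.19, and replicates 1 and 3 of that group differed most of all replicate pairs (chi-square per degree of freedom 16.6, against 1.66 to 8.33 in the other pairs). CCL20 (35.5% GC) and CXCL8 (32.5%) lie below the lower quartile of the tested genes (41.4%), LIF (57.1%) lies above the upper quartile (55.9%), and NFKBIA (52.1%) and TNFAIP3 (47.8%) lie between them. Values after a correction for this trend, chosen after the data were seen, are given for these genes where they changed a call or turned a direction, and for the larger shifts in size.

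Of the 10 genes, 5 could be tested: CCL20, CXCL8, LIF, NFKBIA and TNFAIP3 passed the filter on low counts over the 24 libraries. Per kilobase of exon in the DMSO libraries, CCL20 (42.6 CPM per kb) and NFKBIA (37.8) had the highest levels, LIF (9.22), TNFAIP3 (8) and CXCL8 (2.04) followed, and the other 5 were at 0.373 or less.

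The neutrophil chemokines of the chromosome 4 cluster other than CXCL8 were close to silent. CXCL3 and CXCL5 had no count in any of the 24 libraries, which allows at most the 0.666 to 0.999 CPM of 3 counts, and CXCL1 had 1 count in all, in replicate 3 of 500 nM ABBV-744. CXCL2 had 5, 1 and 0 counts in the DMSO libraries, 3, 0 and 0 with 50 nM ABBV-744, 1 count in 1 library of each of the IFNγ, IFNγ plus 50 nM ABBV-744 and IFNγ plus 500 nM ABBV-744 groups, and none elsewhere. These counts are too low to compare: 0 counts in 3 ABBV-075 libraries against 6 in DMSO gave an upper 95% limit of the ratio of 0.964, and in the fit without a filter CXCL2 had an adjusted p of 0.104. Their neighbours CXCL6, PF4V1, PF4 and PPBP were also at 0 in all 24 libraries, while CXCL8 at the cluster's end had 185 counts in total. At a length of 50 bases, 5.33% of the windows of CXCL1, 10.1% of CXCL2, 3.02% of CXCL3 and 1.17% of CXCL5 occur in another gene, and reads that lie within such windows are not counted; at 100 bases no window is shared.

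CCL20 fell with every BET inhibitor treatment. It was at 66.8, 65.0 and 71.8 CPM in the DMSO libraries. With ABBV-075 it was at 32.8, 21.0 and 28.3, with 50 nM ABBV-744 at 21.2, 29.9 and 27.0, and with 500 nM ABBV-744 at 27.0, 24.7 and 23.0. Every treated library lay below every DMSO library, and the 3 treated groups overlapped. The log2 change was −1.33 ± 0.17 (SE) with ABBV-075 (adjusted p = 0.000113; edgeR quasi-likelihood test here and below), −1.37 ± 0.14 with 50 nM ABBV-744 (adjusted p = 1.94e-07) and −1.44 ± 0.13 with 500 nM (adjusted p = 2.87e-09), that is 2.51-, 2.59- and 2.71-fold lower. With the GC correction these changes were −1.79, −0.97 and −1.24, all of them called.

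CXCL8, the main neutrophil chemokine of this cluster and the member with the lowest tested level, fell as well. It had 16, 23 and 27 counts in the DMSO libraries, 6, 2 and 1 with ABBV-075, 8, 5 and 3 with 50 nM ABBV-744 and 3, 9 and 5 with 500 nM. All treated libraries were below all DMSO libraries. The log2 change was −2.67 ± 0.45 (adjusted p = 0.00075), −1.65 ± 0.40 (adjusted p = 0.00562) and −1.62 ± 0.40 (adjusted p = 0.00579) in that order. With the GC correction the changes were −3.26, −1.19 and −1.38, all called. These values rest on few counts: over the fits that left out 1 library the ABBV-075 value ran from −3.51 to −2.33.

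LIF, with CXCL8, had the largest changes with ABBV-075. It was at 29.5, 38.0 and 39.6 CPM in the DMSO libraries and at 3.62, 3.73 and 4.51 CPM with ABBV-075, 9.17-fold lower (log2 change −3.20 ± 0.22, adjusted p = 1.20e-06). With 50 nM ABBV-744 it was at 26.8, 33.3 and 18.7 CPM, which overlaps DMSO, and with 500 nM at 16.9, 20.5 and 16.7 CPM, which does not. ABBV-744 at 500 nM gave a log2 change of −0.99 ± 0.16 (adjusted p = 7.54e-05), and at 50 nM the value was −0.43 ± 0.17, which was not called (adjusted p = 0.079). That value became a call with the GC correction (−0.64, adjusted p = 0.00799), without a filter on low counts (adjusted p = 0.0357), without DMSO replicate 1 (adjusted p = 0.041) and without replicate 2 of 50 nM ABBV-744 (adjusted p = 0.00204).

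The feedback gene TNFAIP3, whose product A20 removes and edits ubiquitin chains upstream of NF-κB, was at 49.6, 50.0 and 55.1 CPM in the DMSO libraries and at 20.5, 23.5 and 27.97 with ABBV-075. With 50 nM ABBV-744 it was at 40.9, 36.5 and 27.6 CPM and with 500 nM at 29.9, 36.5 and 27.6. No treated library reached the DMSO range. The log2 change was −1.13 ± 0.16 with ABBV-075 (adjusted p = 0.000227), −0.54 ± 0.14 with 50 nM ABBV-744 (adjusted p = 0.00844) and −0.72 ± 0.14 with 500 nM (adjusted p = 0.000409). The call at 50 nM was lost without DMSO replicate 3 (adjusted p = 0.0619) or without replicate 3 of 50 nM ABBV-744 (adjusted p = 0.0704).

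NFKBIA, which encodes the inhibitor that holds NF-κB in the cytoplasm, moved least of the 5 tested genes in these 3 comparisons. It was at 133, 128 and 123 CPM in the DMSO libraries, 106, 93.3 and 109 with ABBV-075, 138, 161 and 152 with 50 nM ABBV-744 and 134, 140 and 135 with 500 nM. The ABBV-075 libraries were below and the ABBV-744 libraries above the DMSO range, by little. The log2 change was −0.34 ± 0.12 with ABBV-075 (adjusted p = 0.0353), 0.25 ± 0.10 with 50 nM ABBV-744 (adjusted p = 0.0824, but 0.0278 and called without replicate 1 of that group) and 0.10 ± 0.09 with 500 nM (adjusted p = 0.524). The ABBV-075 call was lost with the GC correction (−0.18, adjusted p = 0.129), with DESeq2 (adjusted p = 0.0733), without a filter (adjusted p = 0.0583), and when DMSO replicate 1, 2 or 3 or ABBV-075 replicate 2 was left out (adjusted p from 0.0878 to 0.148).

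With ABBV-075, then, 5 of the 5 tested genes were called lower, where 39.3% of the 11244 genes tested were called in either direction, 19.6% lower and 19.8% higher. The NFKBIA call among them was lost in several other fits, as given above. With 50 nM ABBV-744 3 of 5 were lower (18.9% of all genes called, 10.1% lower), and with 500 nM 4 of 5 (15.3% called, 7.8% lower). The median log2 change of the 5 genes was −1.33, −0.54 and −0.99, beside values within 0.03 of 0 over all genes tested. These 3 comparisons share the same DMSO libraries. At the study's own limits, which add a log2 change of at least 1.5 in size, 2 (CXCL8 and LIF), 1 (CXCL8) and 1 (CXCL8) were called, against 4.28%, 0.279% and 0.342% of all genes. CXCL8 passed the filter in these 3 comparisons only through the DMSO libraries (16 to 27 counts), so it could be called lower but not higher. In bulk RNA, fewer cells making a transcript and less of it per cell cannot be told apart.

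**Figure D1:**
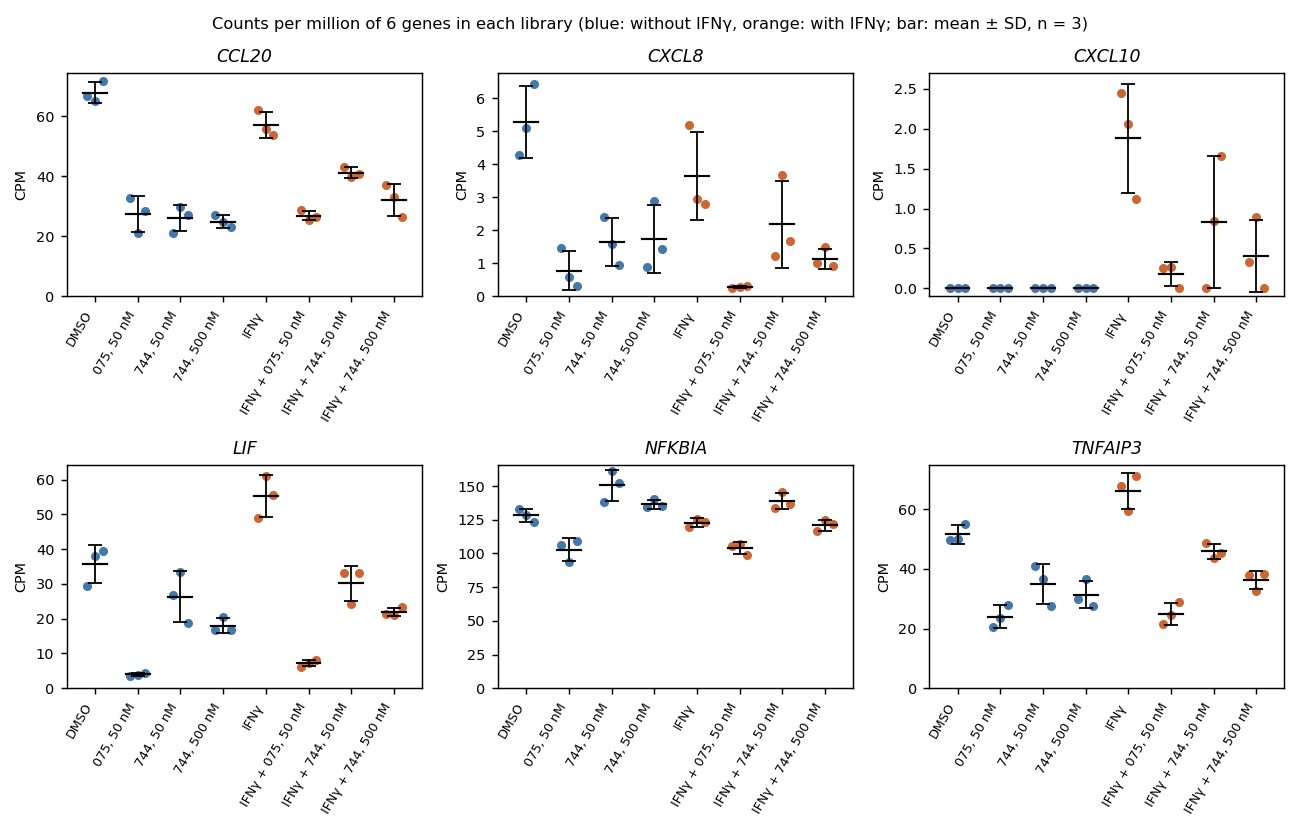
Level in CPM of 6 genes (1 panel each, linear axes) in the 3 libraries of each of the 8 groups, with the group mean and SD; blue points are libraries without IFNγ and orange points libraries with it. CCL20, CXCL8, LIF and TNFAIP3 are highest in the DMSO and IFNγ groups, LIF is lowest in both ABBV-075 groups (means 3.95 and 7.23 CPM), and CXCL10 is at 0 in every library without IFNγ.

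IFNγ alone moved few of these genes. CXCL10, the member known as interferon-induced, had no count in the 12 libraries without IFNγ and had 9, 7 and 4 counts (2.46, 2.07 and 1.12 CPM) with IFNγ, which is at least 2.58-fold higher than the 3 counts per library that a DMSO library at 0 allows. It was too low for the filter; in the fit without one, which called 459 of 16514 genes, the change had an adjusted p of 0.000439. For comparison, IRF1 rose by 4.26 on the log2 scale in the same libraries.

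LIF was at 49.1, 61.1 and 55.7 CPM with IFNγ, above all 3 DMSO libraries, and rose by 0.62 ± 0.12 on the log2 scale (adjusted p = 0.000909). It was the only one of the 5 tested genes called, where 3.46% of all genes were called and 2.76% were higher. TNFAIP3 was at 67.9, 59.3 and 71.05 CPM, also above all 3 DMSO libraries, but its log2 value of 0.36 ± 0.11 was not called (adjusted p = 0.0627); with the GC correction it was (0.35, adjusted p = 0.027), and likewise without IFNγ replicate 2 (adjusted p = 0.0463). CCL20 was at 61.9, 55.8 and 53.7 CPM, below all DMSO libraries, and was not called (log2 value −0.25 ± 0.11, adjusted p = 0.257). CXCL8 (19, 10 and 10 counts; adjusted p = 0.496) and NFKBIA (120, 126 and 123 CPM; adjusted p = 0.803) were not called either.

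When ABBV-075 was added to IFNγ, all 5 tested genes were called lower than with IFNγ alone, where 56.6% of all genes were called and 28.4% were lower. The NFKBIA call did not hold in most other fits, as given below. CXCL8 passed the filter here only through the IFNγ libraries (10 to 19 counts), so it could be called lower but not higher. LIF was at 6.21, 7.34 and 8.14 CPM, against 49.1 to 61.1 with IFNγ alone, a log2 change of −2.94 ± 0.18 (adjusted p = 9.13e-17). CXCL8 was down to 1 count in each of the 3 libraries, so that the ratio of summed counts to IFNγ alone, 3 against 39, was 0.0742 (95% interval 0.0147 to 0.233). CCL20 was at 28.6, 25.6 and 26.5 CPM (log2 change −1.09 ± 0.13, adjusted p = 8.93e-09) and TNFAIP3 at 21.4, 24.5 and 28.9 CPM (−1.42 ± 0.14, adjusted p = 4.09e-11). In these 4 genes, as in NFKBIA, no library with ABBV-075 reached the range of IFNγ alone. The share of all genes that separated in this way was not computed. After the GC correction the changes were −1.82 for CCL20, −4.45 for CXCL8, −2.69 for LIF and −1.22 for TNFAIP3, all called.

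NFKBIA was at 106, 107 and 99.2 CPM in the same libraries, a log2 change of −0.25 ± 0.10 (adjusted p = 0.0348). That call did not hold with the GC correction, where the value was 0.04 (adjusted p = 0.719), nor with DESeq2 (adjusted p = 0.0807), nor without a filter (adjusted p = 0.0804), nor when any of 5 of the 6 libraries was left out (all but IFNγ replicate 1; adjusted p from 0.0513 to 0.125). CXCL10 had 1, 1 and 0 counts, against 9, 7 and 4 with IFNγ alone, and the ratio of summed counts, 2 against 20, was 0.0965 (95% interval 0.0109 to 0.397).

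Adding ABBV-744 to IFNγ lowered CCL20, LIF and TNFAIP3 at both doses, 3 of the 5 genes tested at 50 nM and 3 of 4 at 500 nM. With 50 nM, where 51.7% of all genes were called and 24.3% lower, CCL20 was at 43.1, 39.8 and 40.6 CPM (log2 change −0.45 ± 0.12, adjusted p = 0.00146), LIF at 33.0, 24.3 and 33.1 CPM (−0.85 ± 0.13, adjusted p = 1.97e-06) and TNFAIP3 at 48.7, 43.8 and 45.3 CPM (−0.50 ± 0.11, adjusted p = 0.000321). With 500 nM, where 45.7% were called and 22.8% lower, CCL20 was at 37.0, 33.2 and 26.4 CPM (−0.85 ± 0.13, adjusted p = 5.27e-06), LIF at 21.3, 21.1 and 23.4 CPM (−1.35 ± 0.14, adjusted p = 3.32e-09) and TNFAIP3 at 38.0, 32.6 and 38.1 CPM (−0.88 ± 0.13, adjusted p = 8.99e-07). All of these libraries lay below all IFNγ libraries, and the share of all genes that separated in this way was not computed. Corrected for GC, the CCL20 change was −1.398 at 50 nM and −1.62 at 500 nM, and that of LIF −0.51 and −1.06, all of them called.

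CXCL8 had 5, 13 and 6 counts with 50 nM ABBV-744 and IFNγ, which overlaps the 19, 10 and 10 counts of IFNγ alone, and was not called (log2 value −0.75 ± 0.42, adjusted p = 0.137); it was called with the GC correction (−1.90, adjusted p = 0.000549) and without replicate 2 of the combination (−1.34, adjusted p = 0.0324). With 500 nM it had 3, 5 and 3 counts and did not pass the filter. NFKBIA was at 134, 146 and 137 CPM with 50 nM and at 116, 125 and 122 with 500 nM. Its log2 values of 0.20 (adjusted p = 0.0603) and −0.03 (adjusted p = 0.8) were not called, but with the GC correction they were 0.46 (adjusted p = 1.07e-05) and 0.24 (adjusted p = 0.0129), both called higher. CXCL10 had 0, 3 and 6 counts with 50 nM and 1, 3 and 0 with 500 nM; the latter gave a ratio of summed counts to IFNγ alone of 0.221 (95% interval 0.0549 to 0.659).

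**Figure D2:**
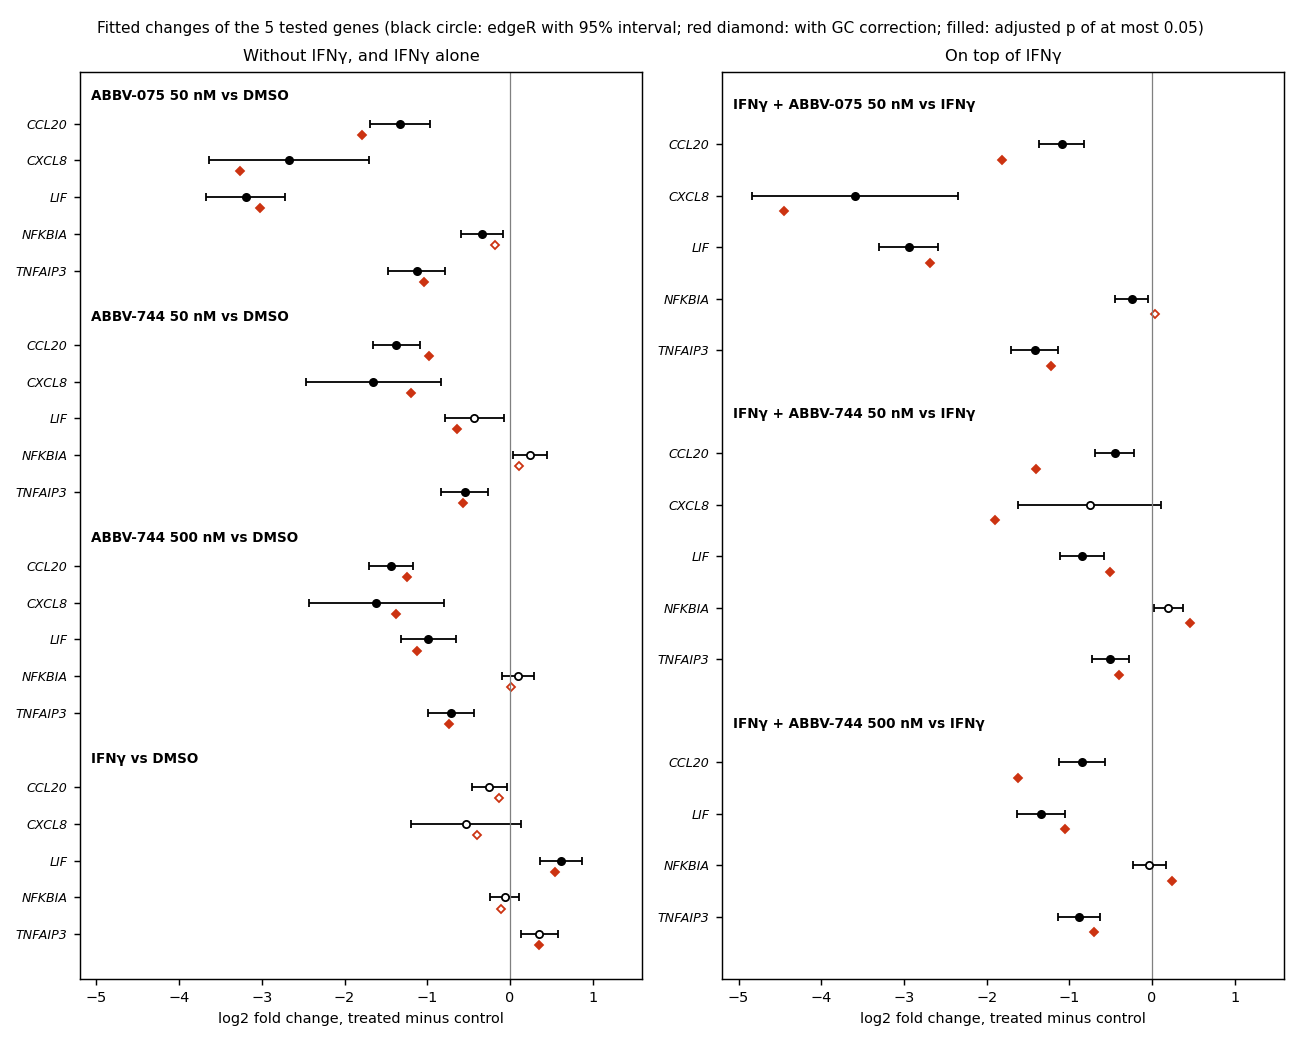
Fitted log2 change (horizontal axis) of each tested gene in 7 comparisons, treated minus control, as black circles with 95% intervals, and the value after the GC correction as red diamonds; filled symbols have an adjusted p of at most 0.05. LIF and CXCL8 lie furthest to the left with ABBV-075, NFKBIA stays between −0.34 and 0.46 in both sets of values, and the diamonds of CCL20 lie well to the left of its circles in all 3 comparisons on top of IFNγ.

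Set side by side at the matched dose of 50 nM, the 2 inhibitors differed most in LIF. LIF was 6.68-fold lower with ABBV-075 than with ABBV-744 (log2 difference −2.74 ± 0.27, 95% interval −3.34 to −2.14, adjusted p = 0.000219), and 4.06-fold lower when both were given with IFNγ (−2.02 ± 0.20, interval −2.41 to −1.63, adjusted p = 2.42e-11). The LIF differences after the GC correction were −2.37 and −2.17. TNFAIP3 was also lower with ABBV-075, by a log2 difference of −0.56 ± 0.19 (adjusted p = 0.0386) without and −0.84 ± 0.14 (adjusted p = 4.25e-06) with IFNγ. NFKBIA was lower too, with log2 differences of −0.56 ± 0.13 (adjusted p = 0.0065) and −0.37 ± 0.09 (adjusted p = 0.00167). The TNFAIP3 call without IFNγ was lost with DESeq2 (adjusted p = 0.0928) and when replicate 1 or 2 of either group was left out (adjusted p from 0.104 to 0.149).

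CCL20 did not separate the compounds in the libraries without IFNγ: the log2 difference was 0.07 ± 0.21, with a 95% interval of −0.39 to 0.53 (adjusted p = 0.816). With the GC correction, however, it was −0.82 (95% interval −1.36 to −0.28, adjusted p = 0.0225), lower with ABBV-075. With IFNγ it was lower with ABBV-075 in both fits, with log2 differences of −0.57 ± 0.13 (adjusted p = 0.000746) and, corrected, −0.42 (adjusted p = 0.00529). In these comparisons 40.8% of all genes were called without IFNγ (19.4% lower) and 33.7% with it (17% lower), beside 3 and 4 of the 4 members tested. CXCL8 passed the filter in neither; with IFNγ it had 3 counts in all with ABBV-075 and 24 with ABBV-744, a ratio of 0.128 (95% interval 0.0247 to 0.422).

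Raising ABBV-744 from 50 to 500 nM changed none of the 4 tested members in the edgeR fit, where 0.0274% of all genes were called without IFNγ and 1.7% with it. The LIF difference, 500 nM minus 50 nM, was −0.56 (95% interval −0.99 to −0.12, adjusted p = 0.775) without IFNγ and −0.44 (interval −0.75 to −0.13, adjusted p = 0.158) with it. The intervals for CCL20 were −0.44 to 0.31 and −0.60 to −0.07, and those for TNFAIP3 −0.53 to 0.19 and −0.56 to −0.07. At an unadjusted p of at most 0.05, LIF alone passed without IFNγ, and CCL20, LIF and TNFAIP3 passed with it. DESeq2 called no member without IFNγ and gave no adjusted p for these 3 with it. In the edgeR fit with the replicate number as a block, LIF was called between the doses without IFNγ (−0.54, adjusted p = 0.0373). Equal levels at the 2 doses were not shown.

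Whether IFNγ altered the response to an inhibitor was tested as an interaction, the change with IFNγ minus the change without. For ABBV-075 none of the 5 genes was called (0.0347% of all genes), and the LIF interaction was 0.24 (95% interval −0.38 to 0.85, adjusted p = 0.892); none of the 5 had an unadjusted p of at most 0.05, and DESeq2 called none, giving no adjusted p for CXCL8. The CCL20 value was 0.21, and −0.0083 with the GC correction. For ABBV-744, CCL20 was called at 50 nM (0.89 ± 0.18, adjusted p = 0.000117) and at 500 nM (0.62 ± 0.19, adjusted p = 0.0112), its fall being smaller with IFNγ than without. The call at 500 nM was lost without replicate 1 of IFNγ plus 500 nM ABBV-744 (0.50, adjusted p = 0.0548). These calls stand in comparisons in which 51.6% and 33.5% of all genes were called (25% and 18.5% higher; the median over all genes was −0.14 and −0.09), and with the GC correction both turned to the other side of 0 and were not called (−0.42, adjusted p = 0.115, and −0.37, adjusted p = 0.118). LIF was not called at either dose (−0.44, adjusted p = 0.106, and −0.34, adjusted p = 0.232), except without replicate 3 of 50 nM ABBV-744 (−0.63, adjusted p = 0.0224). Its GC-corrected values were on the other side of 0 (0.13, adjusted p = 0.725, and 0.059, adjusted p = 0.885). NFKBIA was not called in the uncorrected fits (−0.08 at 50 nM), but at 50 nM was 0.34 (adjusted p = 0.0165) with the GC correction. The uncalled values of CXCL8 at 50 nM (0.87), NFKBIA at 500 nM (−0.11) and TNFAIP3 at 500 nM (−0.15) turned with it as well, to −0.69, 0.22 and 0.033. CXCL8 at 500 nM went from −0.028 to −1.21. None of these was called.

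**Figure D3:**
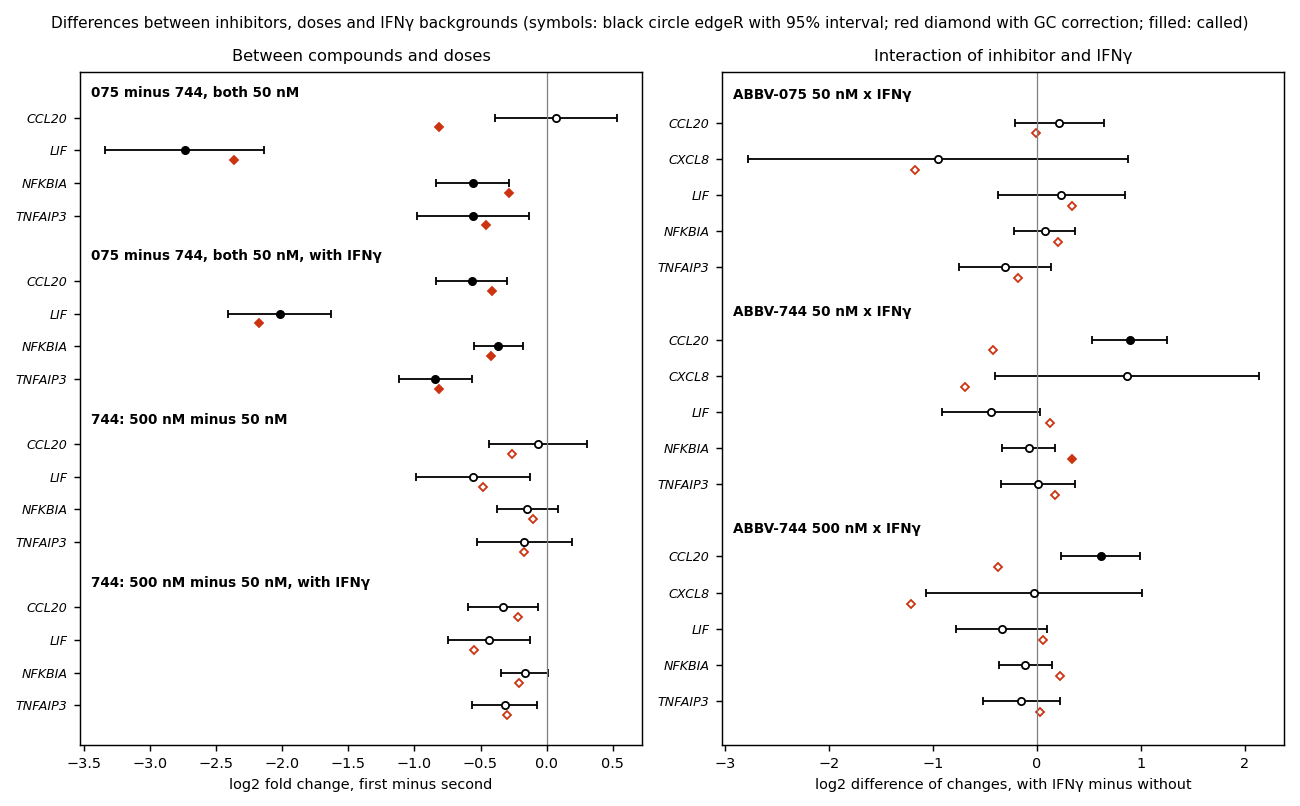
Log2 difference (horizontal axis) of each tested gene between the 2 inhibitors at 50 nM and between the doses of ABBV-744 (left), and interaction of each inhibitor with IFNγ (right), as black circles with 95% intervals and as red diamonds after the GC correction; filled symbols have an adjusted p of at most 0.05. LIF lies far to the left between the compounds in both backgrounds (−2.74 and −2.02), and the circles and diamonds of CCL20 fall on opposite sides of 0 for both ABBV-744 interactions.

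Across all 8 groups, LIF ran from a mean of 55.3 CPM with IFNγ through DMSO (35.7), IFNγ plus 50 nM ABBV-744 (30.2), 50 nM ABBV-744 (26.3), IFNγ plus 500 nM (21.9), 500 nM (18.02) and IFNγ plus ABBV-075 (7.23) to ABBV-075 (3.95). In that order the libraries of neighbouring groups overlapped from DMSO down to IFNγ plus 500 nM ABBV-744, and were apart elsewhere. CCL20 ran from DMSO (67.9) through IFNγ (57.1), IFNγ plus 50 nM ABBV-744 (41.2) and IFNγ plus 500 nM (32.2) to ABBV-075 (27.4), IFNγ plus ABBV-075 (26.9), 50 nM ABBV-744 (26.0) and 500 nM (24.9), and the last 5 of these overlapped with their neighbours. TNFAIP3 ran from 66.1 CPM with IFNγ to 24.01 with ABBV-075. Over the 8 group means of log2 CPM, Pearson's r was 0.928 between LIF and TNFAIP3, 0.87 between CCL20 and TNFAIP3, 0.681 between CCL20 and LIF and 0.115 between CCL20 and NFKBIA, a description of 8 points that share libraries, depth and base composition.

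The genes whose group means were most like those of each member, among 11582 genes, were SCN1A, TGFBR2 and ODAM for CCL20 (r from 0.966 to 0.98), PPP4R1, IARS and B3GNTL1 for CXCL8 (0.988 to 0.991), ST7, MR1 and NRP1 for LIF (0.992 to 0.994), SHANK2, VSIG10 and ZNF674-AS1 for NFKBIA (0.957 to 0.973) and EPB41, TFB1M and TNFSF4 for TNFAIP3 (0.982 to 0.992). These are the highest of 11582 values each and are given with no p.

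Other secreted ligands went with the members under ABBV-075. Of 23 further chemokines and cytokines, 7 passed the filter and all 7 were called lower with ABBV-075 (median log2 change −1.15), where 19.6% of all genes were called lower: CLCF1, another interleukin-6 family ligand, at −2.64 ± 0.59, CSF1, the macrophage growth factor, at −2.36 ± 0.37, and CCL16, a liver chemokine, at −1.77 ± 0.34 had the largest changes. CLCF1 had 0 to 4 counts with ABBV-075 against 11 to 18 with DMSO. The count was 6 of 7 with the GC correction and 5 to 7 when 1 library was left out (5 without DMSO replicate 1 or 2). The filter used the libraries compared, so a gene that passed only through DMSO could be called lower but not higher. Between ABBV-075 and ABBV-744 at 50 nM, where DMSO has no part, 5 of the 23 passed and all 5 were lower with ABBV-075 (19.4% of all genes were lower). With IFNγ in both groups 2 of 5 were lower (17% of all genes). The count was 4 of 5 in each with the GC correction. A gene that passed there only through ABBV-744 could likewise be called lower but not higher. The list was chosen with earlier results of these data known. With ABBV-744 1 of 7 was lower at each dose, beside 10.1% and 7.8% of all genes: CCL16 at 50 nM (−1.47 ± 0.39) and CSF1 at 500 nM (−0.95 ± 0.31). IFNγ raised 3 of 7 (2.76% of all genes), CSF1 by 1.501 ± 0.189, CXCL16 by 0.82 ± 0.16 and IL32 by 0.81 ± 0.09 on the log2 scale. Adding ABBV-075, 50 nM ABBV-744 or 500 nM ABBV-744 to IFNγ lowered 6 of 7 each time, where 28.4%, 24.3% and 22.8% of all genes were lower. CCL16, CLCF1 and CSF1 had the largest changes each time. The count at 50 nM was 4 with the GC correction.

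Among 12 chemokine and LIF receptors, 5 passed the filter. With ABBV-075, where 39.3% of all genes were called, 1 of the 5 was higher and 2 were lower. CCR6, the receptor of CCL20, had 15 to 21 counts in the DMSO libraries and 0 to 3 with ABBV-075, which is a ratio of summed counts of 0.101 (95% interval 0.0317 to 0.251). With IFNγ it had 17 to 20 counts, and 2 in each library when ABBV-075 was added, a ratio of 0.102 (95% interval 0.0358 to 0.235). In both comparisons CCR6 passed the filter only through the libraries without ABBV-075, so it could be called lower but not higher. IL6R was lower with ABBV-075 (−1.33 ± 0.16) and LIFR, the LIF receptor, higher (0.76 ± 0.18, and 0.33 with the GC correction). With ABBV-744, IL6ST, the shared signalling chain of the LIF receptor, was lower at 50 nM (−0.73 ± 0.15) and, with IL6R (−0.53 ± 0.14), at 500 nM (−0.44 ± 0.12). With IFNγ, LIFR was lower (−0.49 ± 0.13), a call that was lost with the GC correction. On top of IFNγ, CCR6, IL6R and OSMR were called lower and IL6ST and LIFR higher with each of the 3 inhibitor treatments, the LIFR calls being lost with the GC correction. In these comparisons 56.6%, 51.7% and 45.7% of all genes were called.

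Of 9 tested genes of NF-κB subunits and kinase components, 3 were higher and 4 lower with ABBV-075, where 19.8% of all genes were called higher and 19.6% lower. REL (1.10 ± 0.21), MAP3K14 (0.85 ± 0.26) and CHUK (0.67 ± 0.19, not called with the GC correction) were higher, and NFKB2 (−1.12 ± 0.20), IKBKG (−1.04 ± 0.16) and RELB (−0.80 ± 0.27) fell most. With 50 nM ABBV-744 RELA was higher (0.51 ± 0.16) and CHUK (−0.70 ± 0.19) and IKBKG (−0.48 ± 0.15) lower, of which IKBKG alone held with the GC correction; with 500 nM RELB (−0.79 ± 0.27) and IKBKG (−0.64 ± 0.16) were lower. On top of IFNγ, 2 were higher and 4 lower with ABBV-075, 2 and 3 with 50 nM ABBV-744 and 2 and 2 with 500 nM. Over all genes 56.6%, 51.7% and 45.7% were called in these comparisons. IKBKG was among the lower and REL and CHUK were the higher ones each time, but CHUK was not called with the GC correction in any of the 3, nor REL at 50 nM. Of 10 other inhibitors and feedback genes, 2 were higher and 1 lower with ABBV-075, namely NFKBIZ (0.97 ± 0.17), CYLD (0.85 ± 0.24, not called with the GC correction) and NFKBIB (−0.93 ± 0.21).

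Upstream, of 13 tested adaptors and receptors, 2 were higher and 4 lower with ABBV-075, a share near the 39.3% of all genes called. MYD88, the adaptor of the interleukin-1 and Toll-like receptors, was lower (log2 change −1.44 ± 0.16), as were IL1R1 (−0.87 ± 0.14) and the kinase IRAK1 (−0.71 ± 0.12), and TAB1 (0.84 ± 0.26) and RIPK1 (0.44 ± 0.15) were higher. IL1R1 was also lower with ABBV-744 at 50 nM (−0.59 ± 0.11) and 500 nM (−0.71 ± 0.11) and with IFNγ (−0.54 ± 0.10), while MYD88 was higher with IFNγ (0.44 ± 0.08). Of the other NF-κB target genes, 10 were tested and with ABBV-075, where 39.3% of all genes were called, 3 were higher, GADD45B (1.35 ± 0.19), EGR1 (1.26 ± 0.22) and SOD2 (0.51 ± 0.13), and 2 lower, the adhesion molecule ICAM1 (−0.98 ± 0.18) and BCL2L1 (−0.36 ± 0.11, not called with the GC correction). ICAM1 rose by 1.56 ± 0.10 on the log2 scale with IFNγ, and on top of IFNγ it was lower with ABBV-075 (−1.08 ± 0.11), 50 nM ABBV-744 (−0.91 ± 0.10) and 500 nM ABBV-744 (−0.96 ± 0.10). The median log2 change with ABBV-075 was −0.21 over the subunits, 0.22 over the inhibitors, −0.17 over the adaptors and 0.30 over the other targets, beside 0.03 over all genes.

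**Figure D4:**
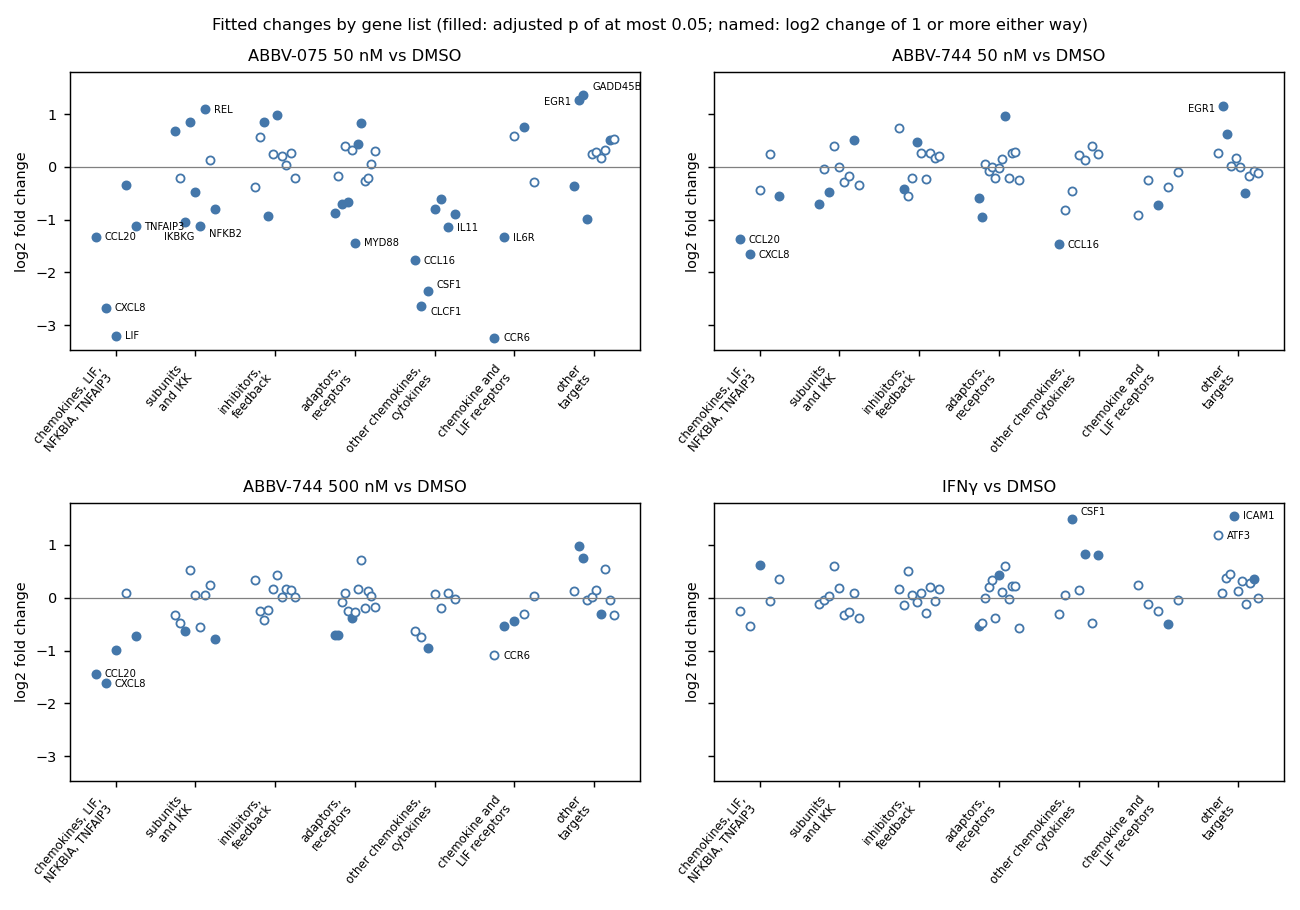
Fitted log2 change (vertical axis) of each tested gene, grouped by list along the horizontal axis, in 4 comparisons against DMSO; filled points have an adjusted p of at most 0.05, and names are given where the log2 change is 1 or more in size. With ABBV-075 all 5 tested members and all 7 other chemokines and cytokines lie below 0, while the other lists hold points on both sides.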

How the data were processed

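Reads were trimmed by the authors with Trimmomatic 0.33 and aligned to GRCh38 (hg38) with STAR 2.7.1 after base calling with CASAVA 1.8.2. The deposited files hold raw read counts per gene symbol, unstranded and by strand; reads mapped to several places are not counted, and 2978982 to 4304103 reads per library were. The column of counts on the gene's strand was used in each of the 24 libraries (3 per group), and rows that name no gene were left out. Counts were tested in R 4.3.3 with edgeR 4.0.16 (filterByExpr, TMM, quasi-likelihood test, 2 groups per fit and 4 for interactions), and p-values were adjusted by Benjamini-Hochberg over all genes tested; a gene was called at an adjusted p of at most 0.05. The script was tested on simulated data. CPM use TMM library sizes over the 24 libraries, fold changes carry edgeR's small prior count, and SE were derived from the test statistic. Ratios of summed counts have exact conditional 95% intervals, for counting error only; a floor of 3 counts per library was used. Alternatives were RLE scaling, no filter, at least 10 counts in every library, DESeq2 1.42.0, all 24 libraries in the fit, a replicate block, unstranded counts, the study's limits (log2 change of 1.5 or more in size), leaving out each library, and, added after the data were seen, a lowess correction (span 0.3) for the GC content of the genes (known for 92.7% of those tested). The members, the gene lists and the tests were chosen with earlier results of these data known. Named were all members, at most 3 called genes per direction from each list and comparison described, 2 of the 4 label checks (the other 2 are not reported here) and the 3 most alike genes of each tested member. Promoter sequences are RefSeq's (GRCh38.p14).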

Additional observations from a re-analysis of the deposited data

Results flagged for a closer look

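The response of CCL20 to ABBV-744 differed between the backgrounds without and with IFNγ by the test of the interaction: 0.89 ± 0.18 on the log2 scale at 50 nM (adjusted p = 0.000117, edgeR) and 0.62 ± 0.19 at 500 nM (adjusted p = 0.0112). CCL20 was 2.59-fold lower than DMSO with 50 nM and 1.37-fold lower than IFNγ alone when IFNγ was present, and 2.71- and 1.80-fold lower at 500 nM. The values after the GC correction were −0.42 (adjusted p = 0.115) and −0.37 (adjusted p = 0.118), on the other side of 0. Without replicate 1 of IFNγ plus 500 nM ABBV-744 the second value was 0.50 (adjusted p = 0.0548). The upper-minus-lower GC quartile values of the libraries were 0.52 to 1.08 with 50 nM ABBV-744 and −0.71 to −0.65 with IFNγ added, and CCL20 has 35.5% GC.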

How the results depend on the processing

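Results were recomputed under 9 alternatives and without each library in turn. RLE scaling, 1 fit over all 24 libraries, unstranded counts and the stricter filter (a minimum of 10 counts) changed the call or direction of no member tested by edgeR as reported, but the fit over 24 libraries also tested CXCL8 with IFNγ plus 500 nM ABBV-744 and between the compounds with IFNγ and called it in both (4 and 5 members called), and CXCL8 never passed that filter except with IFNγ against DMSO. DESeq2 gave no adjusted p, and so no verdict, for CCL20, LIF and TNFAIP3 between the doses with IFNγ, for CXCL8 with 50 nM ABBV-744, and for CXCL8 in the ABBV-075 and 500 nM ABBV-744 interactions. With the GC correction, NFKBIA became 0.036 with ABBV-075 and 0.24 with 500 nM ABBV-744 on top of IFNγ, CCL20 became −0.82 between the compounds at 50 nM, and the interactions became −0.42 (CCL20, 50 nM), −0.37 (CCL20, 500 nM) and 0.34 (NFKBIA, 50 nM); 6 uncalled interaction values also turned (LIF at both doses of ABBV-744 among them), and the cause was not tested. Without 1 library, uncalled values near 0 turned for CCL20 between the compounds (−0.08 to 0.24) and between the doses (−0.20 to 0.06), both without IFNγ, for NFKBIA with IFNγ plus 500 nM ABBV-744, for TNFAIP3 in the 50 nM interaction (−0.13 to 0.14) and for CXCL8 in the 500 nM interaction (−0.30 to 0.51). The number of members called became 2 for IFNγ against DMSO (without a filter, CXCL10 and LIF; with DESeq2 2, the same 2; with the GC correction 2, LIF and TNFAIP3), 5 for IFNγ plus 50 nM ABBV-744 (GC correction), 5 for IFNγ plus 500 nM (no filter, where CXCL8 and CXCL10 were tested) and 0 for the interaction at 500 nM (GC correction). At the study's limits the counts were 2 with ABBV-075, 1 with 50 nM and 1 with 500 nM ABBV-744, 0 with IFNγ, 2, 0 and 0 in the same order on top of IFNγ, 1 between the compounds without and 1 with IFNγ, and 0 and 0 for the ABBV-744 interactions, since a size of 1.5 is then required. The shares of all genes called at these limits were 4.28%, 0.279%, 0.342% and 0.847% against DMSO in that order. On top of IFNγ they were 6.17%, 2.3% and 2.11%. Between the compounds they were 3.83% without and 1.49% with IFNγ, and for the ABBV-744 interactions 6.44% and 3.07%.

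Without 1 library the counts were 4 to 5 with ABBV-075, 2 to 4 with 50 nM and 4 in each fit with 500 nM ABBV-744, 1 to 2 with IFNγ (2 without IFNγ replicate 2), 4 to 5, 3 to 4 and 3 to 4 on top of IFNγ, 2 to 3 and 4 between the compounds, 0 between doses, and 0, 1 to 2 (2 without replicate 3 of 50 nM ABBV-744) and 0 to 1 (0 without replicate 1 of IFNγ plus 500 nM ABBV-744) for the interactions.

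Same-numbered libraries did not deviate together in every pair (correlations from −0.18 to 0.34), so the main fits did not pair libraries by number. Between the doses without IFNγ all correlations were positive, from 0.058 to 0.33. Whether same-numbered libraries share a factor was not tested. The fit with a replicate block called 1 member between the doses without IFNγ (LIF, −0.54, adjusted p = 0.0373, edgeR) and lost NFKBIA with ABBV-075 (adjusted p = 0.0863); it raised the genes called between the doses from 3 to 320 and changed no other member's call.

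The number of all genes called moved by over 1.5 times in some comparisons. It was 2102 with 50 nM ABBV-744 (1157 with DESeq2, 1262 with the GC correction, 708 to 2671 without 1 library), 1700 with 500 nM (982 with DESeq2, 793 to 2003 without 1 library), 5905 and 3827 for the ABBV-744 interactions (2551 and 2003 with the GC correction), 4481 between the compounds without IFNγ (2651 to 5722 without 1 library), 3 between doses without IFNγ (13 without a filter, 5 with DESeq2, 9 with all libraries in the fit, 14 with the GC correction, 0 to 10 without 1 library), 187 between doses with IFNγ (2 with all libraries in the fit, 95 with DESeq2, 111 with the GC correction, 64 to 473 without 1 library), and 4 for the ABBV-075 interaction (45 without a filter, 14 with DESeq2, 14 with the GC correction, 13 without ABBV-075 replicate 3, 200 without ABBV-075 replicate 1).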
